A study of Mus musculus with 15 samples.

Results

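The genes of the epithelial seal were examined across monolayers of mouse duodenal organoid cells that had met a dietary protein source for 6 h. They are 10 of the 18820 genes measured, chosen by name: the claudins Cldn1, Cldn2, Cldn3, Cldn4, Cldn7, Cldn15 and Cldn23, occludin (Ocln), zonula occludens protein ZO-1 (Tjp1) and junctional adhesion molecule A (F11r). Each was carried by 1 probe set as its only symbol, so no choice between probe sets arose. The cells came from the duodenum of wild type C57BL/6J female mice aged 9 weeks, whose crypts were grown as organoids in a medium with WNT3A, R-Spondin and Noggin, dissociated and replated as confluent 2D sheets. Monolayers received casein (CAS), soybean meal (SBM), spray dried plasma protein (SDPP) or yellow meal worm (YMW), each at 4% w/v by the labels, or DMEM alone as the medium control (MC). The methods also express that dose as a mass per volume that does not equal 4% w/v, so the dose is uncertain. There were 3 arrays in each of the 5 groups, and each array held RNA pooled from 3 wells. The methods name 3 mice, but no source used here ties an array to a mouse, so the p-values measure the spread between these arrays.

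The tight junction is the belt near the top of epithelial cells that closes the space between neighbours. Claudins span the membrane and set what may pass. Some seal the space, others form pores for small ions and water, and occludin and junctional adhesion molecules lie beside them. ZO-1 is the scaffold under the membrane that ties these proteins to actin. In the small intestine Cldn2 is known from the crypt and Cldn15 from the whole crypt and villus, where both let sodium through.

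The arrays measured hybridization to probe sets as intensity, which is given here as log2. A probe set's brightness depends on its probes, so levels are compared between arrays and not between genes. Array medians of intensity were 21.7 to 24.1. A log2 value of 3.91 served as background, below which 95% of 1155 receptor genes of smell and pheromones lay, and 12879 genes had a mean above it. The 15 markers of enterocytes, the 11 of crypt and cycling cells and the measured markers of Paneth, goblet and enteroendocrine cells were above background. Pecam1, Cdh5, Kdr and Tek of the 6 endothelial markers, Pdgfra, Dcn and Lum of the 6 fibroblast markers and Ptprc and Itgam of the 4 measured leukocyte markers were not. Cldn5 and Esam, which were just above it, are on the endothelial list and also on the junction lists below. Also above background were Col1a1 (5.22), Col1a2 (4.98) and Col3a1 (4.91) of the fibroblast list. Of the leukocyte list, Cd68 (6.12) and Cd3e (3.98) were above background.

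To show the DNA next to which these transcripts begin, promoter windows from 250 bases before to 50 after the start were taken from RefSeq on GRCm38.p6. Of the 10 genes, 9 had an entry, with 11 windows in all, and Cldn23 had none. The windows of Ocln, F11r and Tjp1, which were lower on average with all 4 sources, and of Cldn4 and Cldn15, which differed between CAS and the other sources at an unadjusted p under 0.05, follow, 5′ to 3′ along the gene, with capitals for the E-box CAGGTG or its reverse complement CACCTG, the letters known for binding of the repressors Snai1 and Snai2. Ocln lies at chr13:100552669-100552968 on the minus strand, F11r at chr1:171437311-171437610 on the plus strand, Tjp1 at chr7:65371195-65371494 on the minus strand, Cldn4 at chr5:134946885-134947184 on the minus strand and Cldn15 at chr5:136967619-136967918 on the plus strand.

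Ocln: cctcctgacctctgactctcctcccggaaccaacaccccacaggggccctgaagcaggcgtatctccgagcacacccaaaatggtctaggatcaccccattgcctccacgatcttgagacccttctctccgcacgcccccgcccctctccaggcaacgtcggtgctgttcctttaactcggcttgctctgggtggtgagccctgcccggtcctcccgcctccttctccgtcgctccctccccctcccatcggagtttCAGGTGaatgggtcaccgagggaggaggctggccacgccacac
F11r: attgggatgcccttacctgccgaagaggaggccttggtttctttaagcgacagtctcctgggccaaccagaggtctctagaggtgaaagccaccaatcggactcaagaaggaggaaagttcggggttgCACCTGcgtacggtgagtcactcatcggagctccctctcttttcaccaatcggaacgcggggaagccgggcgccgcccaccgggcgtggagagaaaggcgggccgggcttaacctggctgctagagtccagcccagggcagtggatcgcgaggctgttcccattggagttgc
Tjp1: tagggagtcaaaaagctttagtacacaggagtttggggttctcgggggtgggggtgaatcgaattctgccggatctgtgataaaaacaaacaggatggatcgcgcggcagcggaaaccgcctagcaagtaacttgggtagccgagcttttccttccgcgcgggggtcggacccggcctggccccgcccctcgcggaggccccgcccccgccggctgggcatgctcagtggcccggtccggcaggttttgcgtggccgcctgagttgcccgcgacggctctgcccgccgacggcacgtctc
Cldn4: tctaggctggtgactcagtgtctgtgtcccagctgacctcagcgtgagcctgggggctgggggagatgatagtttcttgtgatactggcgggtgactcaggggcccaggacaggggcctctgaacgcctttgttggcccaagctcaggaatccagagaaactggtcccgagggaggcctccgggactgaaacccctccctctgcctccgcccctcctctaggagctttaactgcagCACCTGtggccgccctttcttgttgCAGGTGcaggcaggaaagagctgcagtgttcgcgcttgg
Cldn15: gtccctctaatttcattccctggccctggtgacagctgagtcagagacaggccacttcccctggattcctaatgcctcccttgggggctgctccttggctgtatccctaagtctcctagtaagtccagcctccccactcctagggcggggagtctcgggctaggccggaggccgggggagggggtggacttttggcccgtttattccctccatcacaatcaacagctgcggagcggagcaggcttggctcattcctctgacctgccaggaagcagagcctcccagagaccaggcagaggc

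The E-box was found on either strand in 6 of the 11 windows, against 20.2% of the 32851 promoters of the same length. The 2 Ocln windows overlap and are not independent in that count. These windows belong to 5 of the 9 genes, F11r, Cldn3, Cldn4, Cldn7 and Ocln. Cldn4 held it 14 bases before and 12 bases into the transcript. The first Ocln window held it 8 bases into the transcript, and the F11r window held it 122 bases before the start. The second Ocln window, not shown, overlaps the first. Its site 213 bases before its own start is the same site, and a further one lies 68 bases before that start. The windows of Tjp1 and Cldn15 did not hold these letters. The GC box GGGCGG occurred on either strand in each of the 5 windows shown and in 35.7% of all promoters. The letters G and C made up 60.3% (F11r) to 65.3% (Tjp1) of the windows shown, against a median of 52.7% over all promoters. The TATA box TATAAA was found for Cldn2 alone of the 9 genes and in 13.6% of all promoters. The CDX letters TTTAT, whose reverse complement lies within TATAAA, were found for Cldn2, Cldn15 and Tjp1 and in 40% of all promoters, and the HNF4 letters CAAAGT for none of the 9 genes and in 14.4%. Snai1 had a mean log2 value of 4.51 and Snai2 one of 3.88, which is below background. In gene order Cldn3 and Cldn4 are direct neighbours, as are Ocln and Marveld2, the gene of tricellulin, and Cldn1 and Cldn16.

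Of the 10 genes, 9 had a mean above background and Cldn1 did not. The lowest Cldn1 array was at 3.19, the median array at 3.58 and the highest at 3.90, so its differences are given for completeness only. The other 9 lay well above background on all 15 arrays, the lowest single value being 6.79 for Cldn23.

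**Figure D1:**
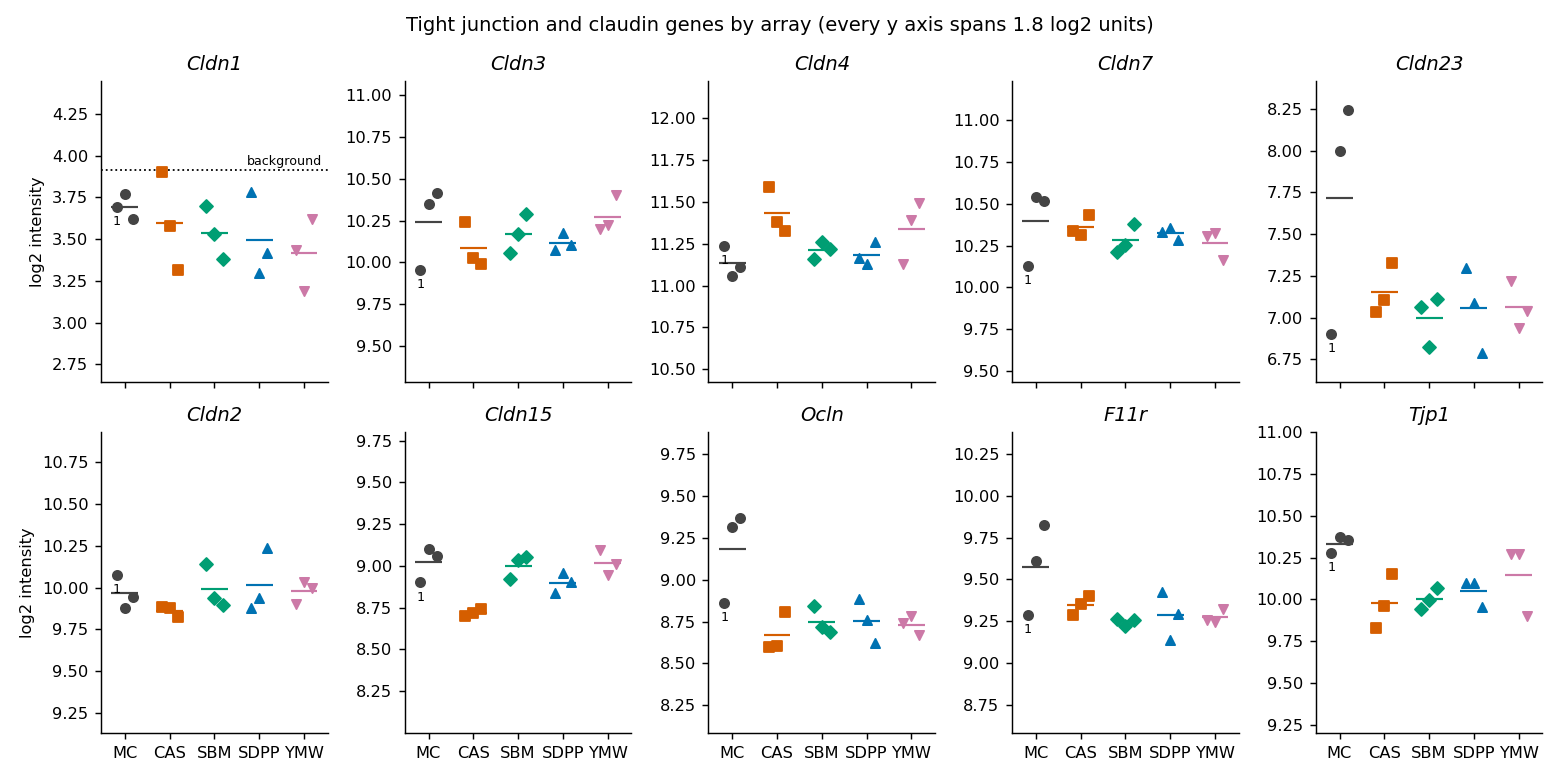
Log2 intensity of the 10 genes on each of the 15 arrays, by group, with points for arrays, a short line for the group mean and the number 1 beside MC replicate 1. Every y axis spans the same range. MC replicates 2 and 3 sit above all 12 treated arrays in Cldn23, Cldn7, Ocln, F11r and Tjp1, and the CAS arrays sit below the other 9 treated arrays in Cldn15.

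The first question of the design is what the protein sources did relative to the MC. The 4 comparisons share the same 3 MC arrays, so they are also given as the mean of the 4 sources against MC. The study's threshold asks for a fold change of at least 1.5 together with an unadjusted p under 0.05, here from limma, and adjusted p-values are Benjamini-Hochberg over all 18820 genes. In that mean comparison, 9 of the 10 genes had a value below 0, with a median of -0.15, against a median of 0.0035 over all genes. Past the threshold was 1 gene, Cldn23, which fell, and 1.90% of all genes passed it downward. At an adjusted p under 0.05 stood 1 gene, Ocln, also lower, against 0.887% of all genes lower. At an unadjusted p under 0.05, 4 genes were lower, where 12.0% of all genes were, and 1, Cldn4, was higher, where 2063 of the 18820 genes were. All 12 treated arrays lay below all 3 MC arrays for Tjp1 alone, against 1.01% of all genes.

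By source the counts were alike. CAS had none of the 10 past the threshold in either direction, with 2.04% of all genes past it downward. Its counts at an unadjusted p under 0.05 were 4 lower, against 8.91% of all genes, and 1 higher, against 7.59%. SBM had Cldn23 past the threshold, against 2.14% downward, and 4 genes lower at an unadjusted p under 0.05, against 10.8%. SDPP had Cldn23 past the threshold, against 0.499%, and 4 genes lower at that p, against 5.63%. YMW had Cldn23 past it, against 2.13%, with 3 genes lower at that p, against 9.11%, and Cldn4 higher, against 9.93%. None of the 10 reached an adjusted p under 0.05 in any single source by limma.

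**Figure D2:**
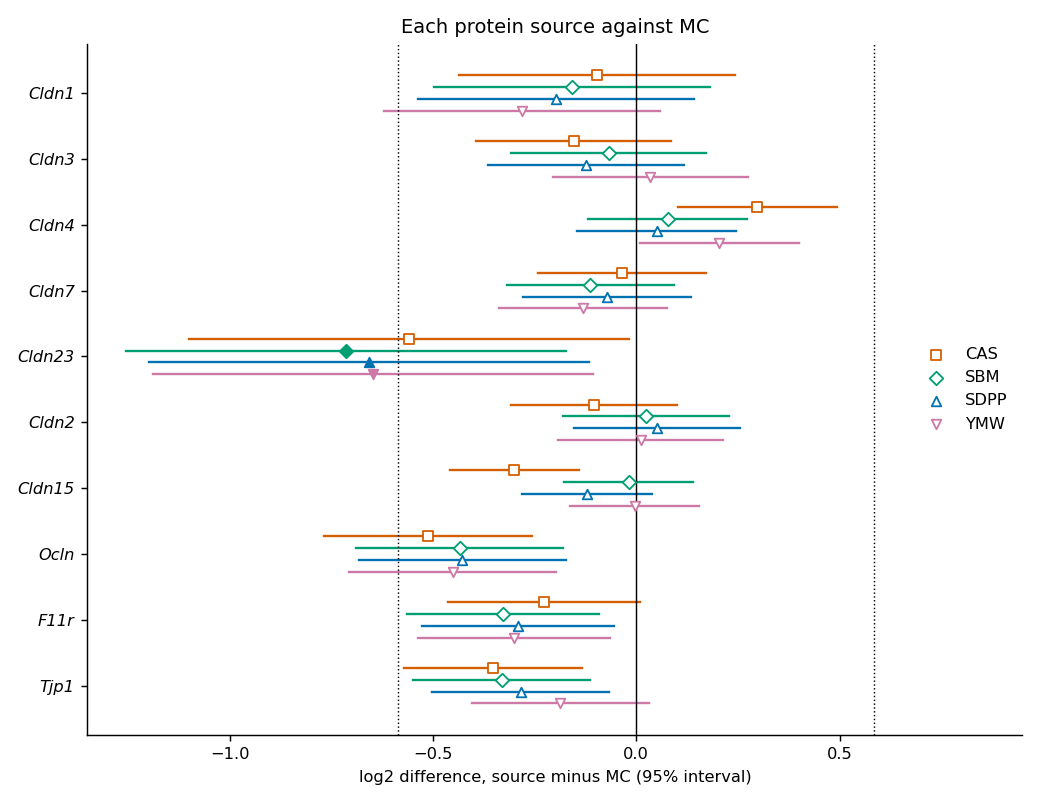
Log2 difference of each source from MC for the 10 genes, with 95% intervals. Filled symbols are past the threshold, and dotted lines mark a fold change of 1.5. Cldn23 has the filled symbols, at -0.71 for SBM, -0.66 for SDPP and -0.65 for YMW, and the Ocln intervals lie below 0 for all 4 sources.

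Occludin, a membrane protein of the junction that is known to bear on its leak pathway, was lower on average with all 4 sources. Its MC arrays read 8.86, 9.32 and 9.37. The CAS arrays read 8.60, 8.61 and 8.81, the SBM arrays 8.84, 8.72 and 8.69, the SDPP arrays 8.89, 8.76 and 8.62 and the YMW arrays 8.74, 8.78 and 8.67. The 4 sources overlap one another, and MC replicate 1 lies inside the treated range of 8.60 to 8.89, while MC replicates 2 and 3 lie above it.

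Over the 4 sources Ocln fell by 0.46 on the log2 scale (SE 0.09), so that the level decreased by 27.1%, with an adjusted p of 0.0407. The CAS arrays differed from MC by -0.51 and the YMW arrays by -0.45 (unadjusted p of 0.000708 and 0.00194). SBM and SDPP both differed by -0.43 (unadjusted p of 0.00259 and 0.0029). The adjusted p of the mean comparison was under 0.05 without MC replicate 1, CAS replicate 3, SBM replicate 1 or SDPP replicate 1 and over it without any 1 of the other 11 arrays, where it lay between 0.0556 and 0.374. With the arrays centred on their medians it was 0.0513, and with the replicate number added to the limma model it was 0.0765. The difference was -0.62 without MC replicate 1, and -0.14 against MC replicate 1 alone.

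F11r encodes an adhesion molecule of the immunoglobulin family at the same belt. Its MC arrays read 9.29, 9.61 and 9.83, and its 12 treated arrays ran from 9.14 through a median of 9.28 to 9.42. MC replicate 1 again lies among the treated arrays and the other MC arrays above all of them. The difference over the 4 sources was -0.29 (SE 0.09, unadjusted p = 0.0053, adjusted p = 0.0803). By source it ran from -0.33 for SBM through -0.30 for YMW and -0.29 for SDPP to -0.23 for CAS. Without MC replicate 1 the mean difference was -0.43 at an adjusted p of 0.000462, without MC replicate 3 it was -0.16, and against MC replicate 1 alone it was 0.0027.

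Tjp1 encodes the scaffold ZO-1. Its 3 MC arrays lay close together and read 10.28, 10.37 and 10.35. The treated arrays ran from 9.83 in CAS replicate 1 to 10.27 in YMW replicates 1 and 2. The gap between the lowest MC array, 10.2755, and the highest treated array, 10.2719, was small beside the spread of the YMW arrays, of which replicate 3 read 9.90.

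The Tjp1 difference over the 4 sources was -0.29 (SE 0.08, unadjusted p = 0.00291, adjusted p = 0.067). By source it was -0.35 for CAS, -0.33 for SBM and -0.28 for SDPP at unadjusted p-values of 0.00372, 0.00572 and 0.0142. For YMW it was -0.19, with a 95% interval from -0.40 to 0.03 that includes 0, and it was -0.06 without YMW replicate 3 and -0.25 without YMW replicate 1 or without YMW replicate 2. The Tjp1 value moved little with the choice of MC arrays, from -0.32 without MC replicate 1 to -0.23 against MC replicate 1 alone, where the unadjusted p was 0.1. Counting each source against MC, the arrays did not overlap downward in 3 of the 10 genes for CAS (Cldn15, Ocln and Tjp1, 7.59% of all genes), in 3 for SBM (Ocln, Tjp1 and F11r, 8.96%), in Tjp1 for SDPP (5.89%) and in Ocln and Tjp1 for YMW (7.12%).

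Cldn23 is a claudin known from differentiated intestinal epithelium. It had the widest spread of the 10 genes within MC, at 6.90, 8.00 and 8.24. Its treated arrays ran from 6.79 through a median of 7.07 to 7.33, with CAS at 7.03, 7.11 and 7.33, SBM at 7.06, 6.82 and 7.11, SDPP at 7.30, 7.09 and 6.79 and YMW at 7.22, 6.94 and 7.04. MC replicate 1 lies within this range, and no source's arrays stand apart from MC as a whole.

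Cldn23 fell by 0.64 on the log2 scale over the 4 sources (SE 0.20, unadjusted p = 0.00601, adjusted p = 0.0836), so that the level decreased by 36.0%. It fell by 0.71 with SBM, by 0.66 with SDPP and by 0.65 with YMW, at adjusted p-values of 0.194, 0.37 and 0.192. For CAS the difference was -0.56 and its fold change of 1.47 was under the threshold. The call rests on MC replicates 2 and 3: the mean difference was -0.50 without MC replicate 2 and -0.38 without MC replicate 3, both outside the threshold, -1.05 without MC replicate 1, and 0.17 with the opposite sign against MC replicate 1 alone. The SBM call was also lost without SBM replicate 2 (-0.62), the SDPP call without SDPP replicate 3 (-0.52) and the YMW call without YMW replicate 2 (-0.58) or 3 (-0.64), and CAS passed without CAS replicate 3 (-0.64).

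Cldn3, Cldn4 and Cldn7 are known as sealing claudins of the intestine. Cldn4 was the gene of the 10 with a positive value over the 4 sources. Its MC arrays read 11.24, 11.06 and 11.11, its CAS arrays 11.59, 11.38 and 11.33, its SBM arrays 11.16, 11.26 and 11.22, its SDPP arrays 11.17, 11.13 and 11.26 and its YMW arrays 11.13, 11.39 and 11.50. The CAS arrays lie above all 3 MC arrays, as did 5.65% of all genes, and the other sources overlap MC.

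The Cldn4 difference from MC was 0.30 for CAS (SE 0.09, a level 22.9% higher, unadjusted p = 0.00563, adjusted p = 0.132). It was 0.20 for YMW (unadjusted p = 0.0418, adjusted p = 0.244), 0.08 for SBM and 0.05 for SDPP. Over the 4 sources it was 0.16 (unadjusted p = 0.0464, adjusted p = 0.209). Against MC replicate 1 alone the CAS value was 0.20 and the mean value 0.06.

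Cldn3 and Cldn7 had values of -0.08 and -0.09 over the 4 sources, with 95% intervals from -0.27 to 0.11 and from -0.25 to 0.08. The Cldn3 MC arrays read 9.95, 10.35 and 10.42 and its treated arrays ran from 9.99 to 10.40. The Cldn7 MC arrays read 10.13, 10.54 and 10.51 and its treated arrays from 10.16 to 10.43. In both genes MC replicate 1 was the lowest of the 15 arrays while MC replicate 3, and for Cldn7 also MC replicate 2, was above every treated array. The sign of both therefore turned with the control: Cldn3 was -0.22 without MC replicate 1 and 0.21 against it alone, and Cldn7 was -0.22 and 0.18.

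Cldn1, a further sealing claudin, had a value of -0.18 over the 4 sources (unadjusted p = 0.165), with its levels below background.

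Cldn2 and Cldn15 form the pores for sodium. Cldn2 was the flattest of the 10 genes against MC. Its MC arrays read 10.07, 9.88 and 9.94, and the treated arrays ran from 9.82 through a median of 9.92 to 10.24. The mean of the 4 sources and MC differed by -0.0045, with a 95% interval from -0.17 to 0.16, and single sources lay between -0.10 for CAS and 0.05 for SDPP. An interval of that width does not show that Cldn2 stayed the same.

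Cldn15 was low with CAS. The CAS arrays read 8.70, 8.72 and 8.74. The MC arrays read 8.90, 9.10 and 9.06, the SBM arrays 8.92, 9.03 and 9.05, the SDPP arrays 8.84, 8.96 and 8.90 and the YMW arrays 9.09, 8.94 and 9.01. The 3 CAS arrays lie below the other 12 arrays, MC replicate 1 included.

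The Cldn15 difference of CAS from MC was -0.30 (SE 0.07, fold change 1.23, unadjusted p = 0.00116, adjusted p = 0.0865). It was -0.02 for SBM, -0.12 for SDPP and -0.0040 for YMW, none at an unadjusted p under 0.05. Without MC replicate 1 the CAS value was -0.36 at an adjusted p of 0.00235, and against MC replicate 1 alone it was -0.18 (unadjusted p = 0.076).

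Whether the sources differed from each other was asked without the MC arrays in the contrast, though these arrays still enter the variance of the model. By the moderated F test of limma among the 4 sources, 1 of the 10 genes, Cldn15, had an unadjusted p under 0.05, at 0.00459, and its adjusted p was 0.634. Over all genes, 4.56% had an unadjusted p under 0.05. Against the mean of the other 3 sources, Cldn15 with CAS was -0.25 (SE 0.06, 95% interval -0.38 to -0.12, unadjusted p = 0.000919, adjusted p = 0.222). That is 1 of the 10 genes lower at an unadjusted p under 0.05, against 2.74% of all genes, and 1 with CAS arrays below those of the other 3 sources, against 0.834%. Cldn4 with CAS was 0.19 higher than the mean of the other sources (unadjusted p = 0.0252, adjusted p = 0.838), against 2.62% of all genes higher, and was 0.11 without CAS replicate 1. Cldn15 with YMW was 0.14 higher (unadjusted p = 0.0335, adjusted p = 0.899), against 3.90%. In the main limma fit no gene of the 10 reached the threshold or an adjusted p under 0.05 between sources. For Cldn15 with CAS against the other sources, the adjusted p in limma lay between 0.060 and 0.808 with 1 array left out. It was under 0.05 in 1 of 27 alternative settings. In the order of the 5 group means, neighbouring groups did not overlap in Cldn15, where SDPP was above CAS, and in Tjp1, where MC was above YMW. All YMW arrays lay below all MC arrays in 7.12% of all genes. That share was not computed for CAS below SDPP. In the other 8 genes each pair of neighbours overlapped.

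The MC arrays were not alike, and this bears on each comparison with MC. The model estimates 1 variance per gene over all 5 groups, so their spread also bears on p-values between the sources. The SD in MC and in the 4 sources was 0.71 and 0.14 to 0.255 in Cldn23 and 0.28 and 0.06 to 0.13 in Ocln. In F11r it was 0.27 and 0.02 to 0.14. In such genes the p-values against MC may be too small. In Tjp1 the MC group had the lowest SD, 0.05. Over the 12879 genes above background, MC replicate 1 lay outside the range of the 12 treated arrays in 16.7% of genes, MC replicate 2 in 41.8% and MC replicate 3 in 50.9%. Among the 10 genes they lay outside it in 3, 7 and 7. The mean of MC replicates 2 and 3 exceeded MC replicate 1 by 1.22 in Cldn23, 0.48 in Ocln, 0.43 in F11r, 0.43 in Cldn3 and 0.40 in Cldn7, but by 0.09 in Tjp1. In Cldn2 and Cldn4 it was lower, by -0.16 and -0.15. Without MC replicate 1, 2 of the 10 genes, Cldn23 and Ocln, passed the threshold with each source, both lower. Of all genes, 4.48% then passed it downward for CAS, 4.90% for SBM, 3.44% for SDPP, 4.60% for YMW and 4.31% over the 4 sources. Without MC replicate 2 or MC replicate 3 none of the 10 did, where 0.143% to 0.808% of all genes passed downward.

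**Figure D3:**
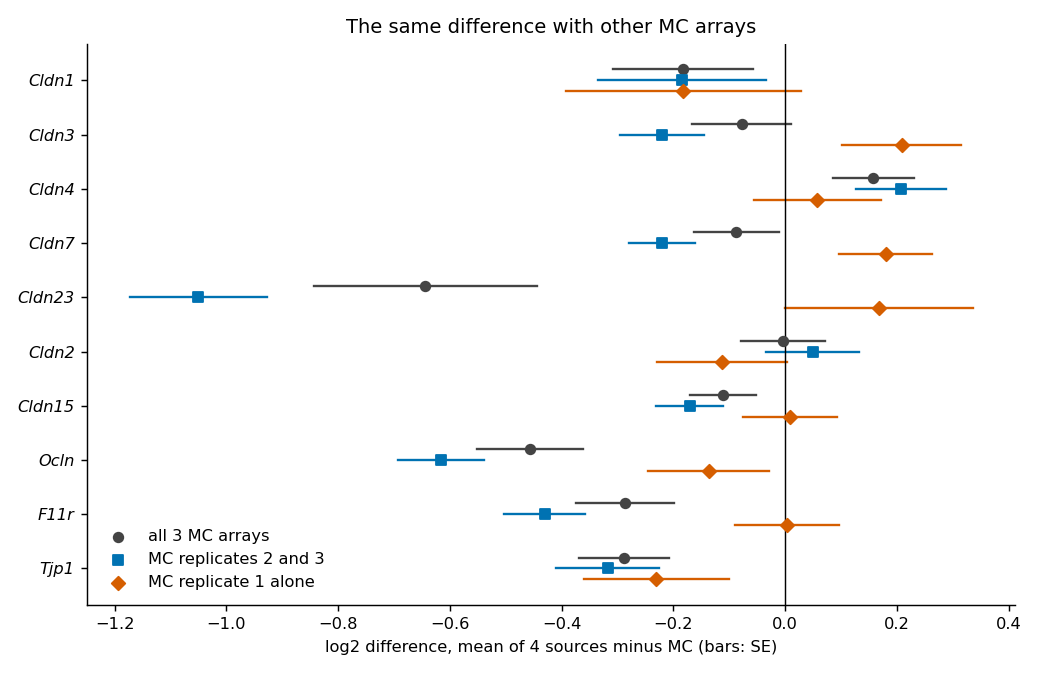
Log2 difference of the mean of the 4 sources from MC for the 10 genes, with SE, computed with all 3 MC arrays, with MC replicates 2 and 3, and with MC replicate 1 alone. Cldn23 moves from -1.05 to 0.17 between the last 2, while Tjp1 moves from -0.32 to -0.23.

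Markers of cell type moved with the same arrays. The mean log2 of the 15 enterocyte markers was 8.38 in MC replicate 1, 10.10 in MC replicate 2 and 10.13 in MC replicate 3, against 8.19 to 9.70 in the treated arrays. Their summed intensity was 10009.6 to 34960.9 in MC and 8622.2 to 23300.0 in the treated arrays. The 11 crypt and cycling markers averaged 9.50, 8.61 and 8.03 in the 3 MC arrays and 9.15 to 9.61 in the treated arrays. Of the enterocyte markers 6 fell past the threshold over the 4 sources and none rose, with a median of -0.88, where 1.90% of all genes fell. Of the crypt and cycling markers 4 rose and none fell, with a median of 0.54, where 1.45% of all genes rose. In such bulk samples fewer cells of a type and less RNA per cell cannot be told apart. The part of this shift in the junction genes was not tested.

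**Figure D4:**
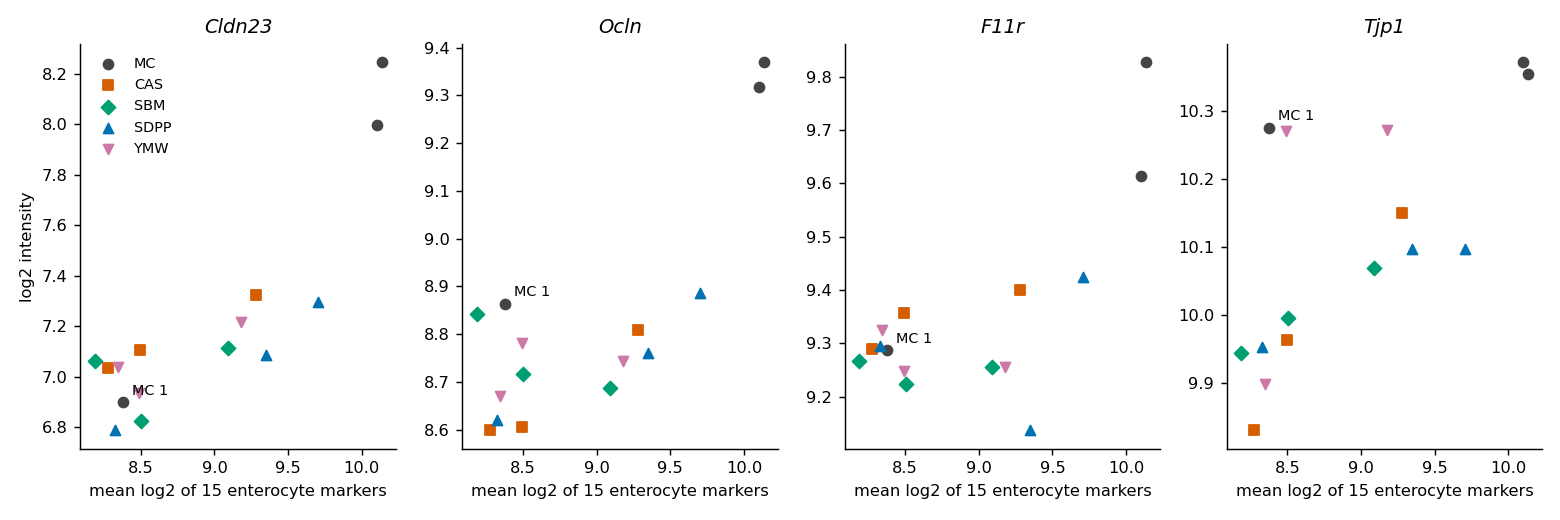
Log2 intensity of Cldn23, Ocln, F11r and Tjp1 against the mean log2 of 15 enterocyte markers, 1 point per array and 1 symbol per group. MC replicates 2 and 3 lie alone at the upper right at marker means of 10.10 and 10.13, and MC replicate 1, at 8.38, lies within the range of the treated arrays except in Tjp1, where it lies just above it.

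Because MC replicates 2 and 3 form a group of their own, the relation of the 10 genes to the markers was taken over the 12 treated arrays, in 20 relations with 2 lists. None of the 20 had an adjusted p under 0.05. Cldn23 came nearest, with Pearson's r of 0.72 and Spearman's rho of 0.69 to the enterocyte mean (permutation p of 0.0088 and 0.0169, adjusted 0.0883 and 0.113). It kept an r of 0.70 without the 2 arrays farthest from the median, and r was 0.85 after the mean of each source had been taken off. Its r to the crypt and cycling mean was -0.73 and rho -0.71 (permutation p of 0.0083 and 0.0123, adjusted 0.0883 and 0.113), with r at -0.51 without 2 arrays. For Tjp1 and the enterocyte mean r was 0.60 and rho 0.73 (permutation p of 0.0414 and 0.0085, adjusted 0.114 and 0.113). For Cldn7 and the enterocyte mean they were 0.62 and 0.56 (permutation p of 0.032 and 0.0633, adjusted 0.114 and 0.204), with r at 0.69 without 2 arrays. For Ocln they were 0.55 and 0.45, for Cldn4 -0.55 and -0.46 and for F11r 0.17 and 0.02. Cldn2, the claudin of the crypt, ran the other way, with r of -0.59 to the enterocyte mean and 0.63 to the crypt and cycling mean (permutation p of 0.0396 and 0.0266, both adjusted to 0.114), and 0.91 to the latter after the mean of each source had been taken off, but 0.39 without the 2 farthest arrays. Its rho to the 2 means was -0.57 and 0.38 (permutation p of 0.0588 and 0.227, adjusted 0.204 and 0.349).

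The other genes of cell contacts were read from 6 lists with 91 measured genes, 79 of them above background. Against MC, 2 of the 91 passed the threshold with CAS, 1 with SBM, none with SDPP and 4 with YMW. The upward background was 1.82% of all genes for CAS and 1.74% for YMW. In either direction, CAS took 3.85% of all genes past it, SBM 3.50%, SDPP 1.63% and YMW 3.87%. With no threshold on the fold change the unadjusted p in limma was under 0.05 for 26 of the 91 in CAS, beside 16.5% of all genes, for 32 in SBM, beside 18.2%, for 19 in SDPP, beside 12.0%, and for 37 in YMW, beside 19.0%. Without MC replicate 1 the counts past the threshold were 10, 9, 7 and 8 in the same order, but 9.08%, 9.40%, 7.33% and 9.53% of all genes then passed it too, so these counts are near the background. Without MC replicate 2 or MC replicate 3 none of the 91 passed with any source, where 0.452% to 1.92% of all genes did. Over the 4 sources the median of the 91 was -0.083, against 0.0035 over all genes.

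Of the 16 other claudins measured, 8 were above background, and none passed the threshold. Their largest values over the 4 sources were -0.32 for Cldn6, which was below background, and -0.30 for Cldn5, the claudin of endothelium (unadjusted p = 0.0446). Of the 20 other tight junction proteins 17 were above background and none passed the threshold, while 2 had an adjusted p under 0.05 over the 4 sources. Both were lower, as were 0.887% of all genes at that adjusted p. Cgn, the actin-linked plaque protein cingulin, had MC arrays at 9.45, 9.81 and 9.88 and treated arrays from 9.13 to 9.47, and fell by 0.39 (adjusted p = 0.0479). Magi1, a membrane-associated scaffold named here after its values were seen, had MC arrays at 7.93, 7.88 and 8.10, all above the 12 treated arrays, which ran from 7.53 to 7.80, and fell by 0.32 (adjusted p = 0.0454). Its relative Magi3 had a value of -0.34 (adjusted p = 0.0809). For Cgn, MC replicate 1 lay within the treated range. How the adjusted p-values of Cgn and Magi1 depend on single arrays was not computed.

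In the polarity complexes, which place the junction along the cell's height, Mpp5, the Crumbs-complex adaptor Pals1, fell past the threshold with SBM (-0.61, adjusted p = 0.179) and YMW (-0.60, adjusted p = 0.147). Its MC arrays read 8.37, 9.02 and 9.23, and its treated arrays 8.10 to 8.71. In the adherens junction, Nectin4, a cell adhesion molecule, rose past the threshold with YMW (0.63, adjusted p = 0.22), with MC at 6.32, 5.12 and 5.17 and YMW at 6.00, 6.37 and 6.13. In the desmosome, whose plakophilins link cadherins to keratin, Pkp1 rose with CAS (0.66, adjusted p = 0.0959), with all 3 CAS arrays above MC. Pkp3 fell with YMW (-0.59, adjusted p = 0.124). Pkp1 read 7.44, 6.84 and 6.67 in MC and 7.78, 7.66 and 7.48 in CAS. Pkp3 read 7.25, 8.01 and 8.22 in MC and 7.37, 7.19 and 7.13 in YMW.

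Of the 15 measured genes of the actomyosin ring and the leak pathway, Myh14, a nonmuscle myosin heavy chain, fell with CAS (-0.64, adjusted p = 0.154), with MC at 8.77, 9.46 and 9.63 and CAS at 8.49, 8.44 and 9.00. Cav1, the caveolae protein known for taking occludin into the cell, rose with YMW (1.07, a fold change of 2.10, adjusted p = 0.18) and over the 4 sources (0.80, adjusted p = 0.15), as 1.45% of all genes rose past the threshold in that mean comparison. Its MC arrays read 6.41, 4.26 and 4.19 and its treated arrays 5.44 to 6.16, so MC replicate 1 was the highest array and the other MC arrays the lowest. None of the 9 transcription factors known to act on claudin genes passed the threshold. Over the 4 sources their lowest and highest values were -0.27 for Gata4 and 0.24 for Grhl2. By source the lowest value was -0.54, for CAS against MC, in a factor other than Gata4, which was at -0.43. There 2 of the 9 were lower at an unadjusted p under 0.05 in limma, beside 8.91% of all genes, and none higher. For CAS against the other 3 sources the lowest was -0.41, again not Gata4 (-0.21), with 1 lower at that p, beside 2.74%, and none higher.

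**Figure D5:**
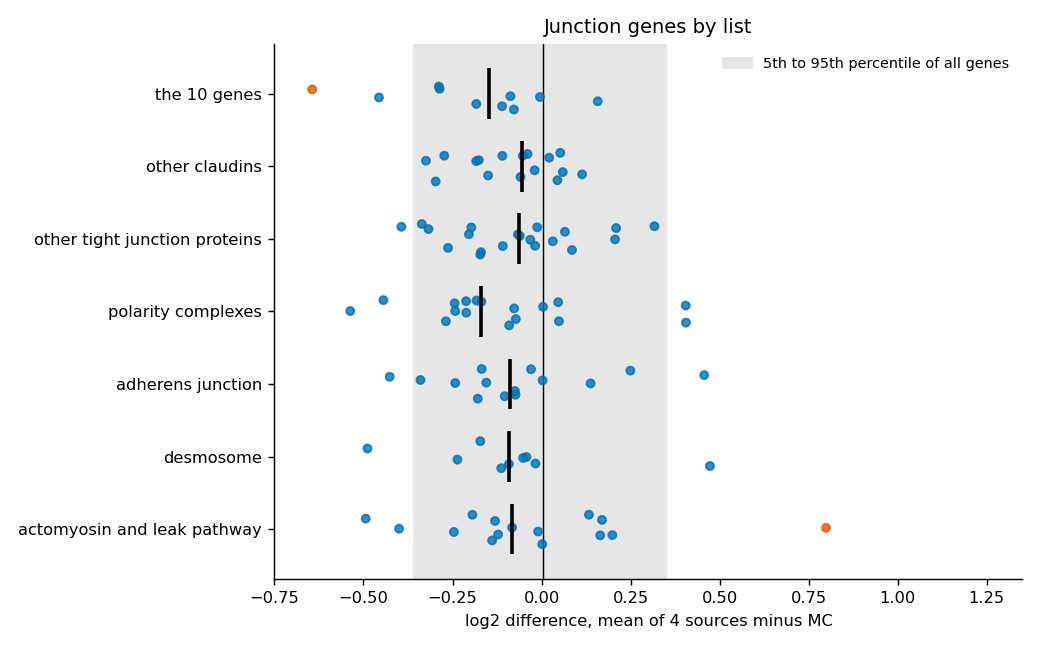
Log2 difference of the mean of the 4 sources from MC for the 10 genes and for each junction list, 1 point per gene, with a thick line for the list's median, orange for genes past the threshold and grey for the range from the 5th to the 95th percentile of all genes, -0.36 to 0.35. Cldn23 at -0.64 and Cav1 at 0.80 are the orange points.

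Among themselves the 10 genes did not move as a block over the 12 treated arrays. The highest Pearson's r of the 45 pairs was 0.55 for Cldn3 and Cldn15, followed by 0.54 for Ocln and Tjp1, and the lowest were -0.70 for Cldn1 and Tjp1 and -0.68 for Cldn2 and Cldn23. These are descriptions over arrays of 4 groups that were normalized together. Over all genes above background, the 3 most like each of the 10 by the same r were as follows. Ocln went with Aldh1a1 (0.95), Rnd3 (0.90) and Il18 (0.89). Cldn23 went with Sowahb (0.96), Cept1 (0.95) and Rab6a (0.94). Tjp1 went with Fat1 (0.94), Eid3 (0.90) and Lrba (0.89).

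The pore claudins had other partners in that description. Cldn15 went with the amino acid transporter chain Slc3a2 (0.91), the nuclear receptor Esrrg (0.88) and the seryl-tRNA synthetase Sars (0.87). Cldn2 went with Chaf1a (0.95), a chromatin assembly factor of replicating cells, Pelp1 (0.94) and Oxsm (0.93). Of the sealing claudins, Cldn4 went with Hid1 (0.92), Gtf2ird1 (0.89) and Mad2l2 (0.88), Cldn3 with Chst8 (0.92), Tnnt3 (0.90) and Mgat4b (0.89), and Cldn7 with Plec (0.91), Brwd1 (0.91) and Atxn7 (0.90). F11r went with Sspo (0.90), Hoxd3 (0.88) and Prkar1b (0.84), and Cldn1 with H2ac1 (0.90), Dyrk1b (0.87) and Pon2 (0.85). With 12879 genes searched, an r of this size over 12 arrays is no sign of a link.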

How the data were processed

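RNA was measured in 15 samples on Affymetrix mouse gene 1.1 ST arrays, with 3 arrays per group. The deposited intensity values are those of the authors' RMA run, a method that removes background, sets the arrays to a common distribution and gives 1 value per probe set. Its version is not given in the sources used here. The deposited values are linear, from 3.02 to 10739.1, so log2 was taken first. Of 35556 probe sets, 21218 had 1 symbol in the platform annotation, 1881 several and 12457 none, and each of 18820 genes was read from its brightest probe set on average. Arrays give no counts, and their number limits the precision.

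A single linear model of the 5 group means was fitted with limma (version 3.58.1, R version 4.3.3), its variances moderated along a trend on intensity, after a check on simulated data. Permutation p-values were two-sided with 100000 resamples, from scipy 1.17.1. The 10 genes and the gene lists were chosen with earlier results of these data known. The text names all 10 genes, up to 6 genes per junction or factor list that passed the threshold in any comparison, or up to 2 by size where none did, and the 3 genes most like each of the 10. The labels number the arrays as biological replicates, a term the paper uses for mouse organoid lines in its lipid assays. The correlations between arrays showed no consistent pairing by replicate number, and whether arrays of 1 number share a mouse is not known. The alternatives were another prior variance, the replicate block, the arrays of a comparison alone, 2 background filters, a second quantile normalization, median centring, array weights, other thresholds on the fold change, all probe sets, each array left out in turn and MC replicate 1 as the only control. No set of genes was tested as a whole. The RT-qPCR, ATP and lipid assays are not analysed here.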

Additional observations from a re-analysis of the deposited data

How the results depend on the processing

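The 3 MC arrays limit what can be seen. The p-values given above for MC replicate 1 alone assume that the lone array varies like the other groups. Counts past the threshold are not given for that setting, since the spread of 1 control array cannot be estimated. The sign then turned to 0.17, 0.25, 0.10, 0.16 and 0.16 over the 4 sources and in CAS, SBM, SDPP and YMW for Cldn23, to 0.21, 0.13, 0.22 and 0.16 over the 4 sources and for CAS, SBM and SDPP in Cldn3, to 0.18, 0.23, 0.15, 0.20 and 0.14 over the 4 sources and for CAS, SBM, SDPP and YMW in Cldn7, to 0.0027 over the 4 sources and 0.062 for CAS in F11r, to 0.0087, 0.10 and 0.12 over the 4 sources and for SBM and YMW in Cldn15, to -0.083, -0.057 and -0.097 for SBM, SDPP and YMW in Cldn2 and to -0.022 and -0.050 for SBM and SDPP in Cldn4.

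With 1 array left out, the count of the 10 genes past the threshold ranged from 0 to 2 for each source and for the 4 sources against MC, and the junction lists from 0 to 10 for CAS, 0 to 9 for SBM, 0 to 7 for SDPP and 0 to 8 for YMW. The lists reached these upper counts without MC replicate 1, and had 4 genes without CAS replicate 3, 3 without SBM replicate 3, 2 without SDPP replicate 1 and 1 without YMW replicate 2 or 3. The share of all genes past the threshold was not computed with a treated array left out. The values that changed sign when an array was left out lay near 0. Cldn1 for CAS ranged from -0.25 to 0.047. Cldn2 ranged from -0.048 to 0.050 over the 4 sources, -0.050 to 0.079 for SBM, -0.059 to 0.12 for SDPP and -0.033 to 0.065 for YMW. Cldn3 ranged from -0.22 to 0.011 over the 4 sources, -0.21 to 0.020 for SBM and -0.11 to 0.12 for YMW. Cldn7 ranged from -0.17 to 0.039 for CAS and -0.21 to 0.0022 for SDPP, and Cldn15 from -0.078 to 0.023 for SBM and -0.064 to 0.037 for YMW.

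With array weights, MC replicate 1 had a weight of 0.193 and MC replicate 2 one of 21.1. For CAS and over the 4 sources 2 of the 10 genes then passed, and the lists had 6, 9, 5 and 8 genes. The share of all genes past the threshold was not computed with these weights, so these counts have no background beside them. Cldn2 over the 4 sources (0.073) and Cldn3 for YMW (-0.067) changed sign. With no threshold on the fold change 5 of the 10 passed for CAS, 4 for SBM, 4 for SDPP, 4 for YMW, 5 over the 4 sources, 2 for CAS and 1 for YMW against the other sources, and 26, 32, 19 and 37 of the lists. At a log2 fold change of at least 1.5 none (0) passed in any of these. With the arrays of each comparison alone, 0 of the 10 passed for SBM, SDPP and YMW, and 2 of the lists for YMW. A second quantile normalization left 0 list genes for SBM and 2 for YMW, and median centring 0 for SBM. Under the former the values were 0.017 for SBM and 0.031 for YMW in Cldn15, 0.061 over the 4 sources in Cldn2, 0.0038 for SBM in Cldn3 and 0.025 for CAS in Cldn7. Under the latter they were 0.057 for SBM in Cldn15, 0.019 over the 4 sources in Cldn2 and 0.0077 for SBM in Cldn3. The cause of these changes was not tested. The share of all genes past the threshold was not computed with the arrays of each comparison alone, the second quantile normalization, median centring or the replicate block. Those counts therefore have no background beside them.

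The replicate block changed no count of genes past the threshold, with 0, 1, 1 and 1 of the 10 genes and 2, 1, 0 and 4 of the lists, but the adjusted p of Ocln over the 4 sources became 0.0765. It also took 3 unadjusted p-values past 0.05, those of Cldn23 with CAS (0.0552), Cldn4 with YMW (0.0588) and Cldn4 over the 4 sources (0.0645). Whether the numbers pair the arrays is not known. Of 30 same-numbered pairs 9 had a correlation of deviations over 0.1, the median was -0.16, and 2 of 15 arrays matched best with their own number. These correlations cannot show that arrays of 1 number came from different mice, since other differences within a group could mask a shared mouse.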
